A study of Mus musculus with 6 samples.

Results

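The genes described here are 10 receptors and secreted proteins of tissue-resident macrophages that bind debris, modified proteins and dying cells: *Cd5l*, *Cd163*, *Marco*, *Msr1*, *Mrc1*, *Stab1*, *Stab2*, *Timd4*, *Axl* and *Mertk*. They were taken by symbol from a table of 17854 mouse genes, and all 10 were found. They were selected on the difference between the 2 groups in these same read counts, so their differences between groups are given as descriptions, with no test. RNA was sequenced in bulk from sorted Tomato+ cells of knee articular cartilage, with 3 libraries in each of 2 groups. In the first group the Tomato+ cells came from the repaired cartilage of male C57BL/6 mice with osteoarthritis. In these mice the anterior cruciate ligament had been cut, and mesenchymal stromal cells (MSCs) of the *Prrx1* lineage, sorted from the inguinal white adipose tissue (iWAT) of *Prrx1-Cre; R26tdTomato* mice, had been injected into the joint. These cells are called MSC-derived here. In the second group the Tomato+ cells were the animals' own articular cells, from *Prrx1-Cre; R26tdTomato* mice matched to the first group in age and sex, and are called endogenous. By the study's methods the recipients were young adults when the ligament was cut, and the age of the endogenous mice was given only as matched.

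In both groups Tomato marks cells in which Cre, driven by regulatory sequence of *Prrx1*, a gene of limb mesenchyme, has removed a stop sequence, and their descendants. Chondrocytes and osteoblasts carry the label in the endogenous joint. No surgery or injection was stated for the endogenous group, so origin of the cells, surgery, arthritis and injection cannot be told apart between the groups. The labels call all 6 libraries chondrocytes. The study's methods give 3 mice for either sample without saying whether each library is 1 mouse, so p-values below measure only the spread between these libraries, which may be technical. No gate against leukocytes was stated for this sort.

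Tissue-resident macrophages clear their surroundings with several families of proteins. Scavenger receptors with cysteine-rich (SRCR) or collagen-like domains bind oxidized lipoproteins, microbial surfaces and, for CD163, the complex of hemoglobin with haptoglobin. The mannose receptor, encoded by *Mrc1*, and the stabilins take up glycoproteins, collagen fragments and hyaluronan. Dying cells are recognized by the phosphatidylserine they expose, either directly, by TIM-4 (*Timd4*), or through the bridging proteins Gas6 and protein S, which bind the TAM receptor kinases Tyro3, Axl and Mer (*Mertk*). *Cd5l* encodes a protein that macrophages secrete, also known as AIM, whose gene is a known target of the nuclear receptor LXRα (*Nr1h3*). *Axl* is not restricted to macrophages and is common in fibroblasts and other mesenchymal cells, and *Stab2* and *Mrc1* are also known from liver sinusoidal endothelium.

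Of the promoters, 3 are printed as examples of the kinds of gene described here, a secreted scavenger, an endocytic receptor and a phosphatidylserine receptor. Each window is the 250 bases before the RefSeq start in the GRCm38.p6 build, 5′ to 3′ on the strand of the gene. That of *Cd5l* is chr3:87357631-87357880, that of *Mrc1* chr2:14229164-14229413 and that of *Timd4* chr11:46810549-46810798, each on the plus strand and upstream of the annotated first exon. Capitals mark GAGGAA (the core letters of sites for ETS factors such as PU.1), AGGTCA (a nuclear receptor element), TGCTGAC (a MAF element) and a palindromic MAF element with 2 free central bases, on either strand.
Cd5l: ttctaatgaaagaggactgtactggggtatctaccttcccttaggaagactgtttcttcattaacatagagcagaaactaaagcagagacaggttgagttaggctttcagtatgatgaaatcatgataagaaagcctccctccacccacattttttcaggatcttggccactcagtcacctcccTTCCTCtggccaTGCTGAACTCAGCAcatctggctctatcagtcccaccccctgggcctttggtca
Mrc1: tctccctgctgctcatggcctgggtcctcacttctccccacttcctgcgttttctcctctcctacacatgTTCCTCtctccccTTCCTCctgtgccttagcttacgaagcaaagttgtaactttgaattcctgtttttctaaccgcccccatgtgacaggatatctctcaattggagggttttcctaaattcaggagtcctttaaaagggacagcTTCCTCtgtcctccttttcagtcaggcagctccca
Timd4: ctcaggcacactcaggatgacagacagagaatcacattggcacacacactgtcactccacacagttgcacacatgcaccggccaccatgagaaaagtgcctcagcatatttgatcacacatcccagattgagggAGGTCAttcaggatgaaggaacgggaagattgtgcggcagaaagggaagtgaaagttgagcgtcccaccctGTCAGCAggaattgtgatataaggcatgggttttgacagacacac
A promoter was matched for 9 of the 10 genes, all but *Msr1*. GAGGAA or its complement stood in 5 of the 9 windows, those of *Axl*, *Cd5l*, *Marco*, *Mrc1* and *Stab1*, and in 23.1% of all 27025 promoters of the table. The *Mrc1* window held it 3 times. The longer GAGGAAGT was in 0 of the 9 and in 2.44% of all promoters. AGGTCA was found in *Stab2* and *Timd4* and in 13.8% of all promoters, and TGCTGAC in *Timd4* and in 3.72%. TATAAA, the letters of a TATA box, was in 0 of the 9 windows and in 13.0% of all. The palindromic MAF element was searched only after the *Cd5l* sequence had been read, and 2 of the 27025 promoters hold it, *Cd5l* among them. Its form with 1 free central base was in 0 of the 9 and in 2 of all promoters. Windows of *Cd5l*, *Cd163* and *Marco* held 0 CpG dinucleotides, those of *Mrc1* and *Stab2* 3, that of *Timd4* 4, those of *Stab1* and *Axl* 5 and that of *Mertk* 7. The median was 6 over all promoters and 15 over the 11307 tested genes with a promoter, so 8 of the 9 windows lay below the first median and all 9 below the second. Letters that match an element are a description of the window and do not show that a factor binds there.

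The libraries held 22060628 to 24881796 expected counts, and the floor of 3 counts stood at 0.1206 to 0.136 CPM of the library total without TMM. Unless stated otherwise, CPM is the expected count scaled to a common library size after edgeR's TMM normalization. Endogenous replicate 1 stood apart from replicates 2 and 3, with a chi-square of 58.7 and 55.4 per gene against 5.43 between the other two and 3.88 to 4.30 between MSC-derived libraries, and ratios that rest on it are given with and without it. Markers of the labelled cell type were lower in the MSC-derived cells, where 10 of 10 chondrocyte genes passed the test and their sum was 6329 to 6548 CPM, against 58350 to 59910 CPM in the endogenous cells. *Prg4*, the lubricin gene, made up most of the MSC-derived sum, and the other 9 summed to 1054 to 1101 CPM against 50050 to 52810, a mean 48.2 times higher in the endogenous cells. Markers of other cells that the sort could hold were higher there. All 10 neutrophil genes were called higher, at a sum of 44720 to 46800 CPM against 2175 to 3081, and all 10 erythroid genes, at 25080 to 25330 CPM against 4007 to 5982. Of the endothelial genes 6 of 9 tested were called higher, at 89.1 to 98.4 CPM against 24.7 to 38.5, and none of the 9 was at 0 in all endogenous libraries, whereas *Clec4g*, a marker of liver sinusoidal endothelium that was too low to test, was. Monocyte genes (5 of 8 higher, 3 lower) summed to 5250 to 5252 CPM against 5733 to 5785, and dendritic cell genes (4 of 8 higher, 1 lower) to 66.9 to 71.4 CPM against 28.8 to 31.4. All 12 genes of a macrophage core list were called higher, at 18260 to 18740 CPM against 469.7 to 676.1. The part of these other cells in the results below was not tested, and in bulk RNA fewer cells of a type and less RNA per cell cannot be told apart.

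All 10 receptor genes were higher in each MSC-derived library than in any endogenous library. All 10 were called higher, against 31.3% of the 14289 genes tested that were called higher and 30.3% that were called lower. The share of genes tested with no overlap in this direction was 38.2%. Nothing is read from these counts, since the contrast chose the genes. The median log2 fold change was 6.75 over the 10 genes and 0.05 over all genes tested. The expression filter asked for 10 counts in a library of median size, or 0.423 CPM of the library total without TMM. Only *Axl* and *Mertk* reached this level in all 3 endogenous libraries, so the other 8 entered the test through the MSC-derived libraries. The receptors thus came in a pair with a substantial endogenous level and a set of 8 that were at or near 0 there, with at most 88 counts in any endogenous library.

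**Figure D1:**
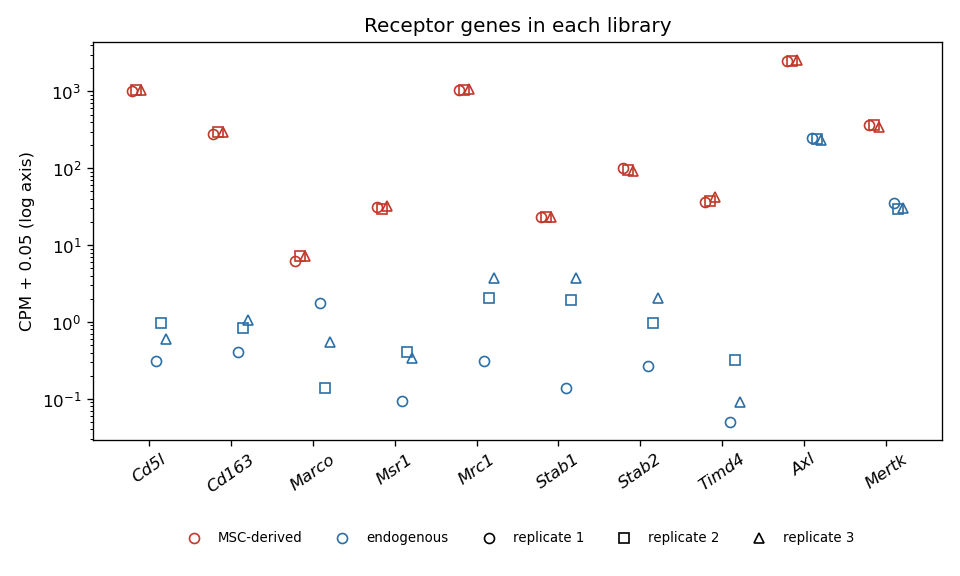
Expression of the 10 receptor genes in each of the 6 libraries, in CPM plus an offset of 0.05 on a log axis. Colour marks the group and symbol shape the replicate number, which does not pair libraries between groups. The MSC-derived libraries lie close together for every gene, whereas the endogenous libraries are spread widely for all but *Axl* and *Mertk*.

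*Cd5l* had 26183, 25701 and 23931 counts in the MSC-derived libraries and 6, 21 and 13 counts in the endogenous libraries. This secreted scavenger protein was thus among the most abundant transcripts of one group and close to the floor in the other. Its level was 585.4 ± 8.61 FPKM (SD, n = 3), at the 98.8 percentile of the genes tested, in the MSC-derived cells. In the endogenous cells it was 0.300 ± 0.171 FPKM (SD, n = 3), at the 6.98 percentile. The ratio of summed CPM was 1800 with a 95% interval of 1320 to 2520, and 1420 without endogenous replicate 1. This interval and those below come from an exact binomial (Clopper-Pearson) bound on the summed counts and cover counting error only. The fitted log2 fold change of 10.80 (standard error 0.25) held rank 6 among all genes tested. Standard errors here and below are the log2 fold change divided by the square root of the F statistic of edgeR's quasi-likelihood test. For genes with few endogenous counts they can be smaller than the counting error.

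*Cd163*, the hemoglobin-haptoglobin receptor, had 7140, 7170 and 6735 counts in the MSC-derived libraries and 8, 18 and 24 in the endogenous libraries. No endogenous library came near the MSC-derived range. The level was 71.0 ± 2.05 FPKM against 0.163 ± 0.0764 FPKM (SD, n = 3 each), a CPM ratio of 400 by counts (95% interval 303 to 539) and of 320 without endogenous replicate 1. Its log2 fold change was 8.64 (standard error 0.23).

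*Msr1*, which encodes scavenger receptor A for modified lipoproteins, had 790, 711 and 729 counts against 1, 8 and 7. All 3 endogenous values were within a few counts of the floor, so the size of the ratio, 132 with a 95% interval of 81.4 to 232, rests on few endogenous reads. Without replicate 1 the ratio was 94.9. The level was 13.5 ± 0.325 FPKM against 0.107 ± 0.112 FPKM (SD, n = 3 each) and the log2 fold change 7.02 (standard error 0.40).

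*Marco*, a collagen-like scavenger receptor of macrophages that face microbes and particles, had 159, 176 and 162 counts in the MSC-derived libraries and 39, 2 and 12 in the endogenous libraries. Endogenous replicate 1 held the most *Marco*, 5.82 times the mean CPM of the other two, although it held the least of 7 other receptor genes. The CPM ratio was 8.91 (95% interval 6.70 to 12.1) and rose to 22.7 without that library. The log2 fold change was 3.14 (standard error 0.80), and 4.43 without it. In FPKM the level was 4.09 ± 0.319 against 0.427 ± 0.468 (SD, n = 3 each).

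*Mrc1*, the mannose receptor CD206 that takes up glycoproteins and collagen fragments, had 26297, 25717 and 24345 counts in the MSC-derived libraries and 6, 45 and 88 in the endogenous libraries. Its MSC-derived counts were close to those of *Cd5l*, but per length its level was lower, at 212.7 ± 3.48 FPKM against 0.370 ± 0.320 FPKM (SD, n = 3 each). The endogenous libraries differed among themselves, replicate 1 holding 0.0932 times the mean CPM of the other two. The CPM ratio was 522 (95% interval 442 to 621), or 367 without replicate 1, and the log2 fold change 9.03 (standard error 0.55), which became 9.86 without replicate 3, where its counts were highest.

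The stabilins are a pair of large endocytic receptors, of which Stabilin-1 takes up SPARC and modified lipoproteins and Stabilin-2 hyaluronan. *Stab2* had 2586, 2309 and 2119 counts in the MSC-derived libraries and 5, 21 and 48 in the endogenous libraries. *Stab1* had 598, 564 and 529 counts against 2, 42 and 88. In the MSC-derived cells *Stab2* was the more abundant of the pair, at 21.8 ± 1.03 FPKM against 3.10 ± 0.0252 FPKM for *Stab1* (SD, n = 3 each), 6.80 to 7.34 times as much in each library. In the endogenous libraries the same quotient was 0.622 to 5, from 0.163 ± 0.115 FPKM of *Stab2* and 0.230 ± 0.220 FPKM of *Stab1* (SD, n = 3 each). Both were lowest in endogenous replicate 1, at 0.150 and 0.0318 times the mean CPM of the other two. The CPM ratio between groups was 90.1 for *Stab2* (95% interval 71.7 to 115), or 64.9 without replicate 1, and the log2 fold change 6.49 (standard error 0.48), or 7.38 without replicate 3. For *Stab1* it was 12.2 (95% interval 10.2 to 14.6), or 8.31 without replicate 1, and the log2 fold change 3.62 (standard error 0.78), which was 3.0 without replicate 1 and 4.57 without replicate 3. Of the endothelial markers, *Lyve1*, *Pecam1* and *Cdh5* were called higher, at 5.50 ± 0.542, 11.1 ± 0.826 and 3.57 ± 0.201 FPKM in the MSC-derived cells against 1.08 ± 0.146, 2.26 ± 0.731 and 1.09 ± 0.448 FPKM (SD, n = 3 each). *Clec4g* and *Oit3* were too low to test. The part of endothelial cells in the levels of *Stab1* and *Stab2* was not tested.

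*Timd4*, the phosphatidylserine receptor that tethers apoptotic cells, had 939, 899 and 964 counts in the MSC-derived libraries and 0, 6 and 1 in the endogenous libraries. It had the lowest endogenous level of the 10, 0.0633 ± 0.0651 FPKM, against 29.9 ± 3.66 FPKM in the MSC-derived cells (SD, n = 3 each). With 7 endogenous counts in all, the ratio of 380 had a 95% interval of 184 to 947, and was 256 without replicate 1. Its log2 fold change was 8.50 (standard error 0.50). Since replicate 2 held 6 of the 7 endogenous counts, the fitted value rose to 10.47 without that library, and it was 7.90 without replicate 1.

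The TAM kinases *Axl* and *Mertk*, which bind phosphatidylserine through Gas6 and protein S, were the only receptors of the 10 with ample reads in both groups. *Axl* had 63435, 60699 and 57825 counts in the MSC-derived libraries and 5610, 5382 and 5517 in the endogenous libraries. Its level was 649.6 ± 5.40 FPKM against 57.4 ± 2.56 FPKM (SD, n = 3 each). *Mertk* had 9308, 8972 and 7970 counts against 795, 660 and 725, and 83.2 ± 2.73 FPKM against 6.38 ± 0.586 FPKM (SD, n = 3 each). Their ratios were alike and, because of the depth, narrow, at 10.5 for *Axl* (95% interval 10.3 to 10.6) and 11.4 for *Mertk* (95% interval 11 to 12). The log2 fold changes were 3.39 (standard error 0.06) and 3.51 (standard error 0.09). Endogenous replicate 1 did not hold less of either gene, at 1.05 and 1.18 times the mean CPM of the other two. *Axl* exceeded *Mertk* 7.62 to 8.17 times in FPKM in the MSC-derived libraries and 8.56 to 9.57 times in the endogenous libraries.

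**Figure D2:**
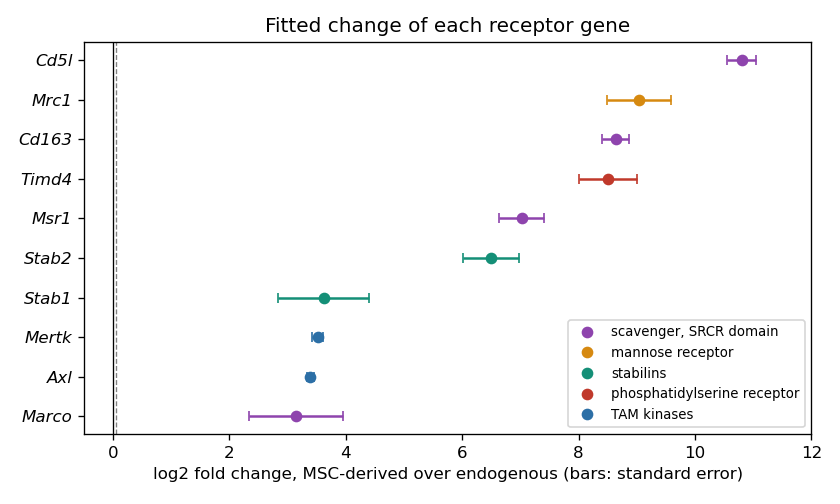
Fitted log2 fold change of each of the 10 receptor genes, MSC-derived over endogenous, with bars for the standard error and colours for the kind of receptor. The standard error is derived from the F statistic and can be smaller than the counting error for genes with few endogenous counts. The dashed line marks the median of all genes tested, 0.05. *Cd5l* lies highest at 10.80 and *Marco* lowest at 3.14, and the bars of *Axl* and *Mertk* are the shortest.

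In the MSC-derived cells the order of levels in FPKM was *Axl*, *Cd5l*, *Mrc1*, *Mertk*, *Cd163*, *Timd4*, *Stab2*, *Msr1*, *Marco* and *Stab1*, and no neighbours in this order overlapped between libraries. *Axl* and *Cd5l* made up 38.8% and 35% of the summed FPKM of the 10 genes, *Mrc1* 12.7% and *Stab1* 0.185%. The order was otherwise in the endogenous cells, where *Axl* and *Mertk* stood first and apart. The other 8 followed from *Marco* at 0.427 FPKM to *Timd4* at 0.0633 FPKM, and every neighbouring pair among them overlapped. *Axl* and *Mertk* together accounted for 96.3 to 98.1% of the summed FPKM of the 10 genes in the endogenous libraries and 43.6 to 44.1% in the MSC-derived ones. The sum itself was 1653 to 1687 FPKM against 63.9 to 68.6 FPKM. In TPM, which scales each library to the same total, the order in the MSC-derived cells was the same. In the endogenous cells *Stab2* and *Cd163* were tied at 0.163 FPKM, and stood at 0.283 and 0.29 TPM. The order there was otherwise the same. FPKM summed to 808701 to 813572 in the MSC-derived libraries and 504768 to 573603 in the endogenous ones, so ratios in FPKM were larger than those in TPM, for example 1950 and 1360 for *Cd5l*.

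Among themselves the MSC-derived libraries agreed closely, with a coefficient of variation of CPM between 0.605% for *Stab1* and 8.02% for *Timd4*. In the endogenous libraries it was 3.41% for *Axl* and 9.84% for *Mertk*, and between 46.4% for *Cd163* and 139% for *Timd4* for the other 8. The 7 receptor genes *Cd5l*, *Cd163*, *Msr1*, *Mrc1*, *Stab1*, *Stab2* and *Timd4* were lowest in endogenous replicate 1, as were 9 of the 12 macrophage core genes. Over all 17854 genes, 3449 were at 0 counts in endogenous replicate 1, against 1323 and 1375 in replicates 2 and 3. The share of all genes lowest in replicate 1 was not computed, so its low values are not read as particular to these genes. That library held 3 or fewer counts of 3 of the 10 genes, *Msr1*, *Stab1* and *Timd4*. The 3 genes highest in it were *Marco*, *Axl* and *Mertk*.

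Dividing each receptor by the macrophage core list separates the 10 genes from one another. Because 5 of the 12 core genes, *Tyrobp*, *Fcer1g*, *Lyz2*, *Itgam* and *Cd14*, are also expressed by neutrophils and made up 66.2 to 67.2% of the core CPM in the MSC-derived and 90.1 to 93.1% in the endogenous libraries, the quotient was also taken over the other 7, a choice made after seeing the data. *Cd5l* was 5.46%, 5.78% and 5.64% of the core CPM in the MSC-derived libraries and 0.0563%, 0.146% and 0.0805% in the endogenous ones, a mean 59.8 times higher (49.7 without endogenous replicate 1), and 13.3 times higher over the 7 genes (10.4 without it). *Mrc1* was 5.67 ± 0.159% against 0.304 ± 0.244% (SD, n = 3 each), 18.6 times higher (13.2 without replicate 1), and 4.02 times over the 7 genes (2.81 without it). *Cd163* was 1.56 ± 0.0646% against 0.116 ± 0.0375% (SD, n = 3 each), 13.5 times higher (11.4 without replicate 1), and 3.03 times over the 7 genes (2.42 without it). These 3 had no overlap between groups with either denominator. The share of all genes without overlap after such a division was not computed. Nothing is read from overlap here or below, since the contrast chose the genes.

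*Axl* and *Mertk* went the other way. *Axl* was 13.2%, 13.6% and 13.6% of the core CPM in the MSC-derived libraries and 52.6%, 37.4% and 34.2% in the endogenous libraries, 0.326 times as high in the former (0.378 without replicate 1). *Mertk* was 1.95 ± 0.0681% against 5.51 ± 1.69% (SD, n = 3 each), 0.353 times as high (0.429 without replicate 1). Over the 7 genes the quotients were 0.0784 and 0.0857 times as high, and neither gene overlapped between groups with any of the 4 denominators used. Both thus differed less between groups than each denominator did.

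Of the other 5 genes, all but *Stab1*, which overlapped throughout, depended on the denominator. *Timd4*, *Msr1* and *Stab2* were 13.1, 4.59 and 3.18 times higher relative to all 12 core genes, without overlap, but 2.72, 0.991 and 0.695 times as high relative to the 7, with overlap. Without replicate 1 these quotients were 8.71, 3.35 and 2.35 for the 12 genes and 1.81, 0.705 and 0.499 for the 7. *Stab1* overlapped with either, at 0.125 ± 0.00112% against 0.285 ± 0.263% of the 12 genes (SD, n = 3 each), a quotient of 0.440, or 0.300 without replicate 1. *Marco* was 0.0370 ± 0.00336% against 0.151 ± 0.188% of the 12 genes (SD, n = 3 each), with overlap. Its quotient of 0.244 became 0.839 without endogenous replicate 1, and over the 7 genes it was lower in every MSC-derived library.

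**Figure D3:**
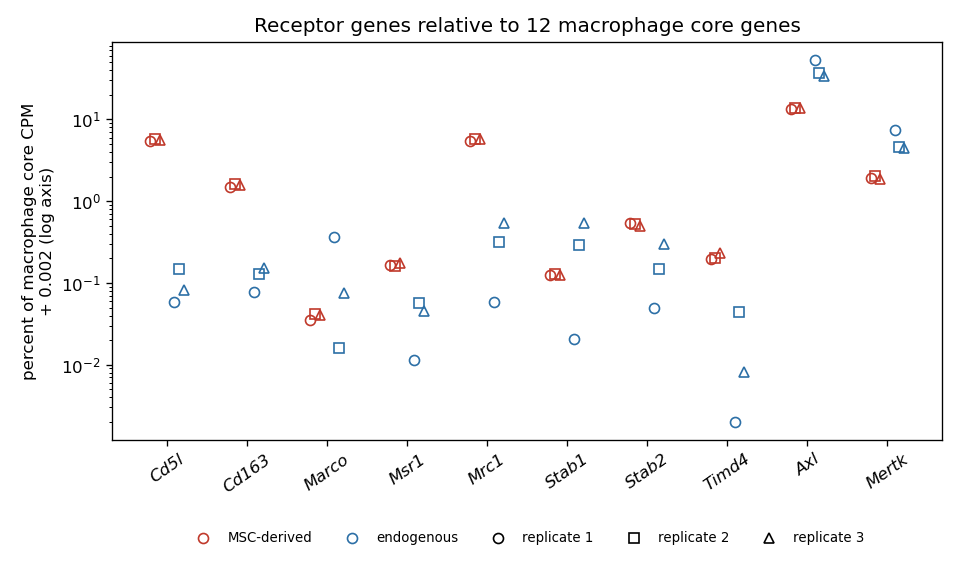
Each receptor gene as a percentage of the summed CPM of the 12 macrophage core genes of the same library, plus an offset of 0.002, on a log axis. Colour marks the group and symbol shape the replicate. *Axl* and *Mertk* are lower in the MSC-derived libraries, *Marco* and *Stab1* overlap, and the other 6 are higher.

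The ligands of these receptors went in both directions. A list of 12 genes, of which 11 are bridging and eat-me ligands and the last is *Adam17*, a protease that sheds receptors, had 6 genes called higher, *Adam17* among them, and 6 called lower, with a median log2 fold change of 0.13. Over all genes tested, 31.3% were called higher and 30.3% lower, the shares to set beside this count and those of the lists below. The lower call of *Calr*, at -0.23 (adjusted p = 0.0320, edgeR's quasi-likelihood test with Benjamini-Hochberg adjustment over all genes tested, as for all adjusted p below), was lost in 11 of 17 alternative fits, with an adjusted p of up to 0.240, and that of *Adam17*, at 0.50 (adjusted p = 0.0145 by edgeR), in 1 of them. *Gas6*, the ligand of all TAM kinases, had 4456, 4281 and 4113 counts in the MSC-derived libraries and 14497, 17204 and 17073 in the endogenous libraries. It fell from 280.3 ± 22.8 to 76.3 ± 0.987 FPKM (SD, n = 3 each), or by 2.0 ± 0.08 (standard error) in log2 (adjusted p = 7.40e-07 by edgeR). *Pros1*, which encodes protein S, fell likewise, from 37.0 ± 2.61 to 11.6 ± 0.795 FPKM (SD, n = 3 each, adjusted p = 2.63e-06 by edgeR). In each MSC-derived library *Gas6* was 0.117 to 0.118 times the FPKM of *Axl*, and in each endogenous library 4.24 to 5.30 times, so the more abundant of ligand and receptor differed between groups.

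*Mfge8* and *Edil3*, which bridge phosphatidylserine to αv integrins, had log2 fold changes of -4.96 and -3.76 and fell in every MSC-derived library (adjusted p = 9.13e-08 and 1.71e-06 by edgeR). *Mfge8* is abundant in cartilage and went from 1694 ± 221 FPKM (SD, n = 3), the endogenous level, to 58.7 ± 1.28 FPKM (SD, n = 3). The subunits of C1q, a complement protein made by macrophages that coats dying cells, rose instead. *C1qa*, *C1qb* and *C1qc* had log2 fold changes of 9.53, 9.08 and 9.45 (standard errors 0.42, 0.36 and 0.24, adjusted p = 1.06e-06, 6.66e-07 and 1.10e-07 by edgeR), and *C1qb* reached 3749 ± 86.5 FPKM from 6.34 ± 3.01 FPKM (SD, n = 3 each).

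Of 13 other engulfment receptors tested, 5 were called higher, 4 lower and 4 neither, with a median log2 fold change of 0.08. These counts lie near the shares over all genes tested, 31.3% higher and 30.3% lower, and nothing is read from them. *Tyro3*, the remaining TAM kinase, had 118, 62 and 55 counts in the MSC-derived libraries and 135, 204 and 185 in the endogenous ones. Unlike *Axl* and *Mertk* it was lower in every MSC-derived library, at a log2 fold change of -1.25 with a standard error of 0.35 (adjusted p = 0.0157 by edgeR), and the call was lost in 3 of the 6 fits that left out a library, with an adjusted p of up to 0.0663. The increases were led by *Cd300a*, *Havcr2* and *Cd300lf*, lipid-binding immune receptors, with log2 fold changes of 6.06, 5.95 and 3.30 (adjusted p = 9.65e-08, 2.66e-06 and 1.90e-06 by edgeR). *Ager*, a receptor for glycated proteins and phosphatidylserine, was called lower at -1.88 (adjusted p = 0.00512 by edgeR). *Havcr2* encodes TIM-3, of the same family as TIM-4, and rose from 0.157 ± 0.0666 to 10.7 ± 1.44 FPKM (SD, n = 3 each). Of the integrin subunits that bind Mfge8, *Itgav* fell by 0.61 on the log2 scale (adjusted p = 0.00921 by edgeR), although not past the threshold in limma on log2 FPKM (adjusted p up to 0.0703), and *Itgb3* had a log2 fold change of -0.23 (adjusted p = 0.478 by edgeR). *Itgb5* rose by 0.28 on the log2 scale (adjusted p = 0.0171 by edgeR), a call lost under 2 other normalizations and without any 1 MSC-derived library, where the adjusted p reached 0.113.

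Among 17 other scavenger receptors tested, 10 were called higher, 5 lower and 2 neither, with a median log2 fold change of 1.42. The increases were led by the macrophage endolysosomal protein *Cd68* (log2 fold change 6.65, adjusted p = 2.77e-08), the β-glucan receptor *Clec7a* (4.8, adjusted p = 3.25e-05) and *Cd36*, a receptor for oxidized lipoproteins and fatty acids (2.93, adjusted p = 3.54e-05), all by edgeR. The 5 decreases were those of the class A receptors *Scara5*, *Colec12* and *Scara3*, the class F receptor *Scarf2* and the SRCR protein *Ssc5d*. They were led by *Scarf2*, *Scara5* and *Colec12*, with log2 fold changes of -3.44, -2.82 and -2.70 (adjusted p = 2.68e-07, 1.51e-06 and 2.73e-07 by edgeR). *Colec12*, a collectin-like scavenger, stood at 131.4 ± 8.56 FPKM in the endogenous cells, above *Axl* there, and 21.9 ± 1.67 FPKM in the MSC-derived cells (SD, n = 3 each).

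The machinery that acts after binding, from Rac activation to digestion and lipid export, had 21 of 31 genes called higher, 9 lower and 1, *Rubcn*, neither (adjusted p = 0.157 by edgeR), with a median log2 fold change of 1.02. *Slc40a1*, the iron exporter ferroportin, rose most, by 6.54 on the log2 scale, from 10.3 ± 1.85 to 1037 ± 14.5 FPKM (SD, n = 3 each, adjusted p = 6.88e-08 by edgeR). *Vav1*, an activator of Rac in blood cells, and *Abcg1*, a cholesterol exporter, rose by 4.75 and 4.71 (adjusted p = 9.58e-07 and 7.93e-08 by edgeR). The adaptor *Bcar1*, the transporter *Slc12a4* and the engulfment adaptor *Gulp1* had log2 fold changes of -2.74, -2.42 and -2.19 (adjusted p = 6.78e-06, 7.84e-07 and 0.000440 by edgeR).

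All 6 do-not-engulf genes were called higher, with a median log2 fold change of 2.44. *Pirb* and *Sirpa*, inhibitory receptors of myeloid cells, had log2 fold changes of 5.49 and 4.94 and *Siglecg*, which binds the signal Cd24, 3.49 (adjusted p = 1.17e-05, 2.61e-08 and 0.00206 by edgeR). *Sirpa* reached 453.8 ± 2.91 FPKM from 14 ± 0.691 FPKM (SD, n = 3 each). Its ligand *Cd47*, present on most cells, rose by 0.85 (adjusted p = 0.00165 by edgeR).

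Heme and iron recycling, the pathway that *Cd163* feeds, had 9 of 13 genes called higher and 2 lower, with *Cd163* itself in the list and a median log2 fold change of 2.99. After *Cd163* and *Slc40a1*, the increases were led by *Slc11a1*, a metal transporter of the phagosome, and *Hmox1*, which cleaves heme, at 5.73 and 5.36 (adjusted p = 4.92e-08 and 1.59e-07 by edgeR). *Hmox1* rose from 88.5 ± 15.9 to 3950 ± 140.0 FPKM (SD, n = 3 each). The decreases were small. *Flvcr1*, a heme exporter, and *Hp*, haptoglobin, had log2 fold changes of -0.51 and -0.42 (adjusted p = 0.0192 and 0.0339 by edgeR), and these calls were lost in 6 and 10 of 17 alternative fits, with adjusted p of up to 0.221 and 0.184. *Hp*, the protein whose complex with hemoglobin CD163 binds, was abundant in MSC-derived and endogenous cells alike, at 543.4 ± 7.54 FPKM (SD, n = 3) in the first and 667 ± 132 FPKM (SD, n = 3) in the second.

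Of 21 regulators of macrophage identity, 11 were called higher and 8 lower, with a median log2 fold change of 0.70. *Spic*, a transcription factor of red pulp and other iron-recycling macrophages, had 9236, 9274 and 8559 counts in the MSC-derived libraries and 0, 18 and 12 in the endogenous libraries, which is 9.73 ± 0.43 (standard error) in log2 (adjusted p = 1.11e-06 by edgeR). *Csf1r*, the receptor that macrophages need for survival, and *Irf8* rose by 5.88 and 4.66 (adjusted p = 5.66e-08 and 5.44e-06 by edgeR). *Nr1h3*, a known regulator of *Cd5l*, rose by 3.90 from 5.80 ± 2.62 to 93.2 ± 2.0 FPKM (SD, n = 3 each, adjusted p = 4.31e-05 by edgeR). The ligands of Csf1r fell, *Il34* by 3.95 and *Csf1* by 3.49 (adjusted p = 2.59e-05 and 2.72e-07 by edgeR). *Gata6*, a regulator of peritoneal macrophages, fell by 3.16 (adjusted p = 0.00138 by edgeR), from 1.33 ± 0.638 FPKM to 0.163 ± 0.0473 FPKM (SD, n = 3 each).

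**Figure D4:**
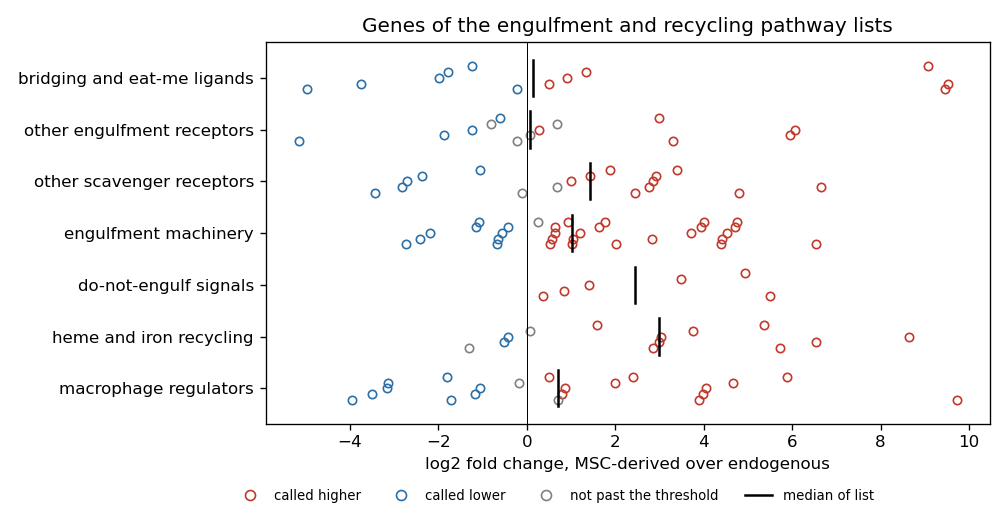
Log2 fold changes, MSC-derived over endogenous, of the tested genes in 7 lists around the receptors, with a bar at the median of each list. Red circles were called higher, blue circles lower, and grey circles did not pass the threshold. Circles are offset vertically only to separate them. The ligand list includes *Adam17*. Do-not-engulf genes all lie on the higher side, whereas ligands and other engulfment receptors lie on both.

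All 11 tested companions of resident macrophages were called higher, with a median log2 fold change of 8.18, led by *Cd209f*, *Itgad* and *Fcna*. Among the others were *Vsig4*, a complement receptor of resident macrophages, *Siglec1*, the sialic acid receptor CD169, and *Trem2*, a lipid receptor. Their log2 fold changes were 8.97, 8.69 and 8.18 (standard errors 0.42, 0.41 and 0.51). *Vsig4* had 1, 0 and 4 counts in the endogenous libraries, so its standard error may understate the counting error. *Lyve1*, shared by a subset of macrophages and lymphatic endothelium, rose by 2.22 (standard error 0.21), to 5.50 ± 0.542 FPKM (SD, n = 3). These genes were chosen with earlier results of these libraries known, as were the 10 receptors, so nothing is read from their calls.

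The genes whose profile over the 6 libraries lay nearest to the median profile of the 10 receptors were *Lair1*, *Fgd2*, *Rgs1*, *Dnajb13* and *Tmem273*, out of 10100 genes whose log2 CPM averaged 3 or more. The measure was the root mean square distance between centred log2 CPM profiles, 0.0849 for *Lair1* and 0.271 for *Tmem273*. *Lair1*, an inhibitory receptor for collagen, had 3828, 3837 and 3563 counts in the MSC-derived libraries and 11, 42 and 59 in the endogenous libraries, with the same low endogenous replicate 1 as 7 of the receptors. *Dnajb13* and *Tmem273* were at 0 counts in that library.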

How the data were processed

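The files cover bulk RNA-seq of 3 MSC-derived and 3 endogenous libraries, made with an Illumina TruSeq kit from total RNA. The authors filtered reads with SOAPnuke and quantified genes with HISAT2, Bowtie2 and RSEM, and the submitters' processing notes name Bowtie2 2.2.5, RSEM 1.2.12 and mm9. The deposited expected counts are RSEM's, without normalization. The deposited FPKM and TPM are the authors' length-scaled levels. A further deposited signal, the authors' scaled count, was not used, nor were 8 columns of group means. The 24 columns used were mapped by sample name, and 0 columns were left unmapped. The strandedness of the counting was not given in the sources used here.

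Expected counts were rounded, which changed 20.6% of values, and the main test was edgeR 4.0.16 (R 4.3.3, TMM, filterByExpr, glmQLFit, glmQLFTest, no block) over 14289 genes, with Benjamini-Hochberg adjustment and a threshold of 0.05. The test was first tried on simulated data. Alternatives were DESeq2 1.42.0 (the study used DESeq2 in another version), limma 3.58.1 on log2(FPKM + 1) or log2(FPKM + 0.1), other normalizations and filters, a replicate block, an adjusted p of 0.001 and each library left out. Same-numbered libraries did not deviate together (r = 0.0129, 0.0022 and 0.0179), so the numbers do not pair them.

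The 10 receptors, the lists and the rule for named genes were chosen with earlier results of these data known. The calls and adjusted p of list genes are therefore descriptions as well. Named genes are the receptors and, per list, up to 3 of largest increase and 3 of largest decrease whose log2 CPM averaged 1 or more, plus TAM, C1q and integrin genes, the markers shown beside them and the 5 nearest profiles. Outside this rule *Adam17*, *Calr*, *Prg4*, *Scara3*, *Ssc5d*, *Hmox1*, *Nr1h3*, *Rubcn*, *Clec4g*, *Oit3*, *Cd47*, *Vsig4*, *Siglec1* and *Trem2*, were named after their values were seen. Promoters came from a RefSeq table on GRCm38.p6, the only coordinates given, since the counts were made on mm9. Protein sequences were not used here, and 1 gene of the regulator list is not reported here by name. Figures were drawn with matplotlib 3.10.9.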

Additional observations from a re-analysis of the deposited data

How the results depend on the processing

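At a threshold of 0.001 *Marco* and *Stab1* were not called, and the calls of the receptors under other settings carry no weight, since this contrast chose them. Over 17 alternatives the fitted log2 fold change ranged most widely for *Timd4*, from 4.86 in limma on log2(FPKM + 1) to 10.47 without endogenous replicate 2. It ranged from 1.75 to 4.57 for *Stab1*, from 1.88 to 4.43 for *Marco* and least for *Axl*, from 3.30 to 3.50. The lower ends for *Timd4*, *Stab1* and *Marco* came from limma on log2(FPKM + 1), a different measure from the count fit. Adding 1 FPKM there shrinks the difference of genes whose endogenous level is below 1 FPKM. Relative to the macrophage core, *Msr1* and *Stab2* were no longer higher when 5 genes shared with neutrophils were left out of the core. Their quotients were then 0.991 and 0.695, with overlap between groups. That of *Marco* was 1.06 in place of 0.572 when *Ptprc* was the denominator and endogenous replicate 1 was left out. The median log2 fold change of all genes was 0.05, and 0.16 with library size alone, 0.20 in limma on log2(FPKM + 0.1) and -0.06 in DESeq2.

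Over all genes, 4468 were called higher and 4333 lower, 2134 and 2380 at 0.001, and 3672 to 5563 and 3761 to 5686 when a library was left out. With the replicate block 4103 and 3920 genes were called. The 2 heme and iron genes called lower became 1 with library size alone and with the replicate block, 0 in each limma fit and at 0.001, and 0 to 2 when a library was left out. The 4 dendritic cell genes called higher became 7 in limma with the smaller pseudocount or no filter, 1 at 0.001, and 4 to 7 when a library was left out. At 0.001 the lower calls were 0 for other engulfment receptors, 5 for engulfment machinery and 0 for dendritic cells, and the higher calls were 3 for do-not-engulf and 2 for endothelial genes. The causes were not tested. At these depths, receptors with a few endogenous counts have ratios known only to within their counting intervals.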
